A study of Mus musculus with 12 samples.

Results

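The 9 genes described here are *Il2*, which encodes the T-cell growth factor interleukin-2, and the receptor chains of its family: *Il2ra*, *Il2rb*, *Il2rg*, *Il4ra*, *Il7r*, *Il9r*, *Il15ra* and *Il21r*. They were taken by name from the 45777 genes of the deposited table, and all 9 were among the 23585 genes tested. RNA was sequenced from splenic CD4+ T cells of wild-type mice, labelled Balb/c and 7 weeks old, that had been cultured over 3 days with an anti-CD3 antibody at 0.5 ug/mL, a stimulus of the T-cell receptor. The antibody was given alone, or *L. acidophilus*, FK506 or both (the combination) were added to it, with 3 libraries per group and 12 in all. FK506 (tacrolimus) inhibits calcineurin, the phosphatase that activates the transcription factor NFAT, and *L. acidophilus* is a lactic acid bacterium, used in heat-inactivated form in the study's splenocyte cultures. Every group thus carried the anti-CD3 stimulus, and no unstimulated library was part of the comparisons. The sample labels give no dose of the bacterium or of FK506, and the study's methods name another mouse strain. The sources used here do not say whether the 3 libraries of a group came from separate animals or cultures, so p-values measure the spread between these libraries, which may be technical.

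IL-2, IL-4, IL-7, IL-9, IL-15 and IL-21 are sensed by receptors that share one subunit, the common gamma chain encoded by *Il2rg*. Each receptor adds a private chain, and the beta chain encoded by *Il2rb* serves both the IL-2 and the IL-15 receptor, whose alpha chains (*Il2ra*, also known as CD25, and *Il15ra*) raise the affinity for the cytokine. The gamma chain signals through JAK3 and its partner chains through JAK1, which activate STAT proteins, mainly STAT5 for IL-2, IL-7, IL-9 and IL-15, STAT6 for IL-4 and STAT3 for IL-21. In T cells, receptor stimulation induces *Il2* and *Il2ra* and lowers *Il7r*, the receptor of resting T cells, and IL-2 signalling further raises *Il2ra*.

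*Il2* is a classical NFAT-driven gene, so the promoters of 5 members whose level changed with the combination are shown, with the core NFAT letters in capitals. Each window, credited to RefSeq on GRCm38.p6, runs 5′ to 3′ on the gene's strand from 250 bases before to 50 bases after an annotated start. The capitals mark GGAAA or its reverse complement TTTCC.
Il2 (chr3:37125905-37126204, - strand): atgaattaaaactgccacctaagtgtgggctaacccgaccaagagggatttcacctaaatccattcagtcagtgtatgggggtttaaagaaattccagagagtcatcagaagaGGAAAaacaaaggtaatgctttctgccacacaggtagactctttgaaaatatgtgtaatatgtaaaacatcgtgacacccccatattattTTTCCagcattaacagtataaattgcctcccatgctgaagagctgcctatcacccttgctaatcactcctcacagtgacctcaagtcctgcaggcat
Il2ra (chr2:11642542-11642841, + strand): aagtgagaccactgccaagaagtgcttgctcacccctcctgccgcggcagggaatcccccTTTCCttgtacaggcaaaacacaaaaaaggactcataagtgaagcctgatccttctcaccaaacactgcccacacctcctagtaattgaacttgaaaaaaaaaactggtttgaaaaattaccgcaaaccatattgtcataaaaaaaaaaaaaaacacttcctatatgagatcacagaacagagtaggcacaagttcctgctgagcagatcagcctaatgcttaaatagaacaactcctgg
Il4ra (chr7:125552021-125552320, + strand): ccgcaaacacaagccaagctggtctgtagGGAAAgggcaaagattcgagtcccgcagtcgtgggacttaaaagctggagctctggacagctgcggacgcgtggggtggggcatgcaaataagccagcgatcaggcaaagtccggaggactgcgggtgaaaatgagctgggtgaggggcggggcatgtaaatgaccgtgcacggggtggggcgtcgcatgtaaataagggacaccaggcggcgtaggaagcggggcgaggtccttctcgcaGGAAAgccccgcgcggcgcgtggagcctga
Il21r (chr7:125603179-125603478, + strand): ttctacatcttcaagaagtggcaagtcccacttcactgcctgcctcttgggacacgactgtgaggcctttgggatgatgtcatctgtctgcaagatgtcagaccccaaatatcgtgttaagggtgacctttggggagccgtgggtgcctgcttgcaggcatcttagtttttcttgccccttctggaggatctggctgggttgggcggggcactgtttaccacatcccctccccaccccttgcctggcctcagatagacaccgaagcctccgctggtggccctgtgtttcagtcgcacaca
Il7r (chr15:9529827-9530126, - strand): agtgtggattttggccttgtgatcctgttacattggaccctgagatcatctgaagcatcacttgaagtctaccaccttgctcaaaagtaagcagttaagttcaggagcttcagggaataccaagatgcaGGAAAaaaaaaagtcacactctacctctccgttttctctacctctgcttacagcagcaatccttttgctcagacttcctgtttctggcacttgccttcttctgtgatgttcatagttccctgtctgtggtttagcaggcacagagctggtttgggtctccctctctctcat
The *Il2* window held 2 matches, which began at positions −137 and −47 from the start. *Il2ra* held 1 match, *Il4ra* held 2, *Il7r* held 1 and *Il21r* held 0. Of the windows not printed, that of *Il9r*, which also changed, held 0, and of members not called against anti-CD3 alone, *Il2rg* held 2 and *Il15ra* held 5 in 1 of its 2 windows and 0 in the other. Among all 32851 windows of the same length, 61.3% held at least 1 match on either strand 26.7% held at least 2 and 0.728% at least 5, so 1 or 2 matches are common. The *Il7r* window also held the STAT5 letters TTCNNNGAA, which began at position −142 and which 8.3% of all windows hold. The *Il21r* window held the FOXO letters TGTTTAC at position −38, found on either strand in 3.65% of all windows. The table held windows for 8 of the 9 members. A match is a description of the letters and not of a binding site.

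Expression is given as FPKM (fragments per kilobase of transcript, scaled to the fragments of the library), which can be compared between genes, and changes were tested on the read counts with edgeR's quasi-likelihood test. A call required an adjusted p under 0.05 by the Benjamini-Hochberg method over all 23585 genes. Total counts per library ranged from 45416397 to 64658165. FPKM values summed to 380445 to 486334 per library, lowest in combination replicates 2 and 3, and carry no TMM factors, so FPKM levels and tested changes can differ. The T-cell markers *Cd3d*, *Cd3e*, *Cd3g*, *Cd4*, *Trac*, *Lck* and *Cd28* summed to 1141 to 1570, 1374 to 1485, 1239 to 1403 and 1847 to 2191 FPKM in the anti-CD3, *L. acidophilus*, FK506 and combination groups, and the combination against anti-CD3 alone had 4 of the 7 called higher. The study's methods isolate CD4+ T cells with CD4-coated magnetic beads, a sort that would remove most other cells. The 10 B-cell markers summed to 39.7 to 64.8 FPKM with anti-CD3 alone and 26.8 to 38.3 with *L. acidophilus*, against 238 to 484 with FK506 and 155 to 176 with the combination. The 10 myeloid markers summed to 2.53 to 4.27, 3.79 to 7.82, 6.34 to 20.1 and 48.5 to 75.4 FPKM in the same order, and markers of CD8 T cells and NK cells to at most 9.02 and 15 FPKM in any library. In such bulk libraries, fewer cells of a type and less RNA per cell cannot be told apart.

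With the combination, 6 of the 9 genes differed from anti-CD3 alone. *Il2*, *Il2ra*, *Il4ra* and *Il21r* were lower and *Il7r* and *Il9r* were higher, each by more than 2-fold, while *Il15ra*, *Il2rb* and *Il2rg* did not pass the test. Of all genes tested, 21.5% were called higher and 21.8% lower in this comparison, and 24.6% were called with at least a 2-fold change. The 6 calls were made again in each of the 12 fits that left out 1 library. In the same comparison 8 of 10 B-cell markers, 7 of 8 myeloid markers tested and 4 of 7 T-cell markers were called higher, and their part in the changes of the 9 genes was not tested.

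**Figure D1:**
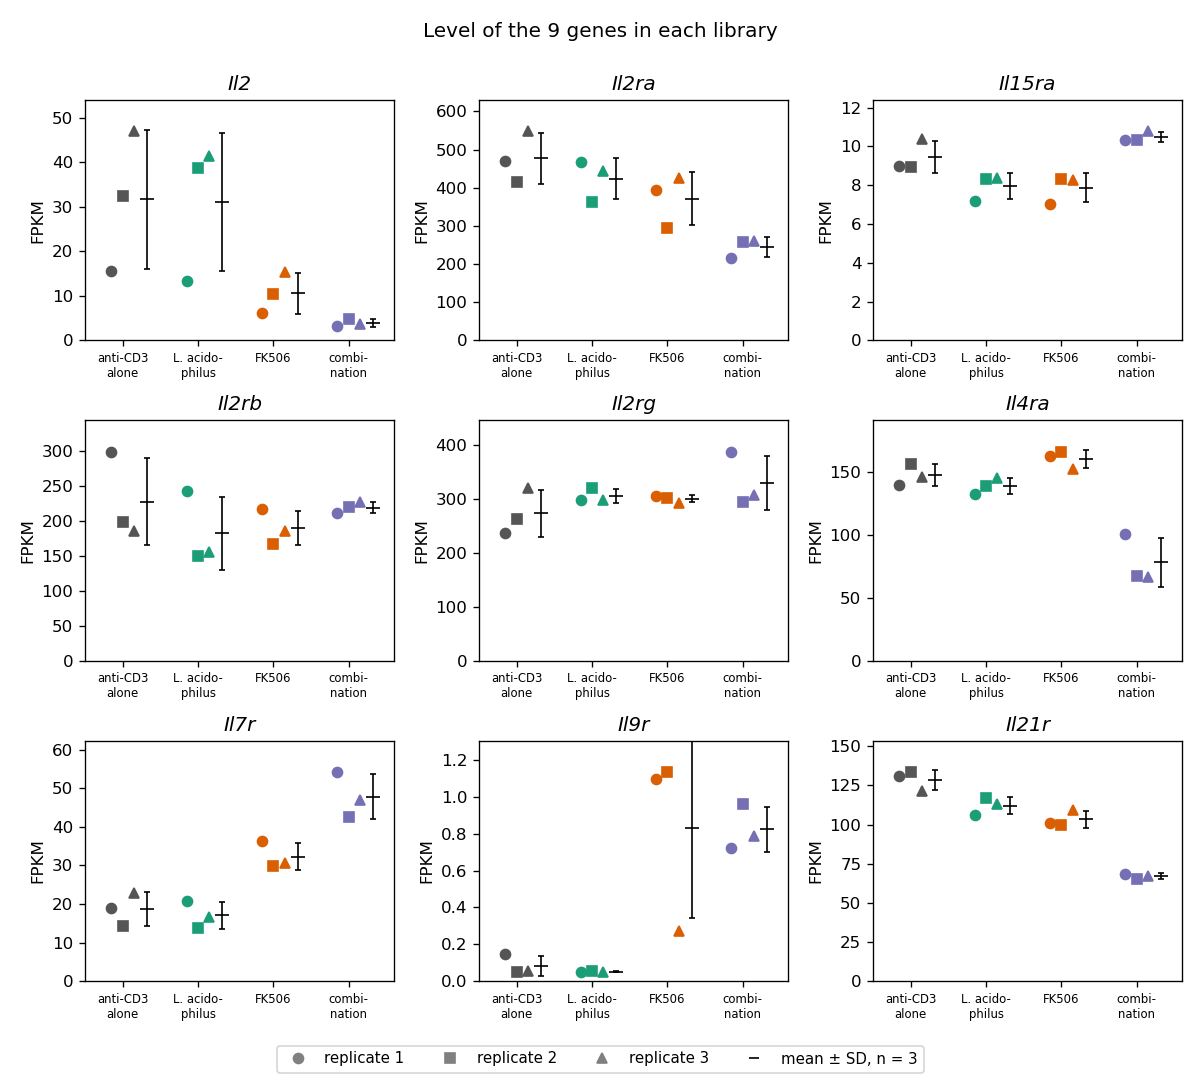
FPKM of the 9 genes in each of the 12 libraries (circle, square and triangle: replicates 1, 2 and 3; dash and bar: mean ± SD, n = 3), with a linear axis from 0 for each gene. *Il2*, *Il2ra*, *Il4ra* and *Il21r* were lowest with the combination (*Il2* 3.16 to 4.82 FPKM), *Il7r* was highest there (42.6 to 54.2 FPKM), and *Il2rb* and *Il2rg* overlapped between all groups.

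*Il2* (gene 16183, chr3:37120713-37125954, GRCm38.p6) encodes the cytokine itself. Its level was 15.6, 32.4 and 46.9 FPKM in replicates 1, 2 and 3 with anti-CD3 alone and 13.3, 38.7 and 41.4 FPKM with *L. acidophilus*. With FK506 it was 6.10, 10.4 and 15.2 FPKM, and with the combination 3.16, 4.82 and 3.64 FPKM. The highest combination library therefore lay below the lowest library of every other group, and the FK506 libraries lay below all libraries with anti-CD3 alone. Replicate 1 was the lowest *Il2* library in each of the 4 groups. The spread was widest with anti-CD3 alone (31.6 ± 15.7 FPKM, SD, n = 3) and narrowest with the combination (3.87 ± 0.857 FPKM, SD, n = 3).

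*Il2* was 9.32-fold lower with the combination than with anti-CD3 alone (log2 fold change −3.22 ± 0.50 SE, adjusted p = 3.42e-04, edgeR) and 8.77-fold lower than with *L. acidophilus* (−3.13 ± 0.50, adjusted p = 6.65e-04, edgeR). FK506 alone lowered it 3.19-fold (−1.67 ± 0.47, adjusted p = 0.0281, edgeR). This call was lost without anti-CD3 replicate 2 or 3 or FK506 replicate 1 or 2 (adjusted p = 0.0693, 0.0838, 0.0987 and 0.0956, edgeR) and with limma on log2(FPKM + 1) (adjusted p = 0.0729) or log2(FPKM + 0.1) (0.0601). Within the same replicate number, the FK506 level was 0.391, 0.320 and 0.325 of that with anti-CD3 alone, though the numbers were not taken as pairs in this comparison. The combination was 2.92-fold below FK506 alone (−1.55 ± 0.48, adjusted p = 0.0424, edgeR). That call was lost in 6 of 12 fits that left out 1 library: without *L. acidophilus* replicate 2, FK506 replicate 2 or 3, or combination replicate 1, 2 or 3 (adjusted p = 0.0522, 0.0748, 0.177, 0.116, 0.0760 and 0.118, edgeR). It was also lost with limma on log2(FPKM + 1) (adjusted p = 0.116) or log2(FPKM + 0.1) (0.0819), without TMM factors (0.0561) and with combination replicates 2 and 3 summed (0.0952).

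*Il2ra* (gene 16184, chr2:11642792-11693194) encodes the alpha chain that gives the IL-2 receptor its high affinity, and it was the most abundant of the receptor genes in the anti-CD3, *L. acidophilus* and FK506 groups by mean FPKM. Its level was 469, 414 and 548 FPKM with anti-CD3 alone, 466, 363 and 443 FPKM with *L. acidophilus*, and 393, 294 and 427 FPKM with FK506. With the combination it was 215, 258 and 262 FPKM, below every library of the other groups. The fold change was −1.17 ± 0.16 on the log2 scale against anti-CD3 alone (2.24-fold lower, adjusted p = 1.45e-04, edgeR) and −0.92 ± 0.16 against *L. acidophilus* (adjusted p = 0.00106, edgeR). Against FK506 alone it was −0.70 ± 0.16 (1.62-fold lower, adjusted p = 0.0106, edgeR), and the adjusted p was 0.0511 without FK506 replicate 3 and 0.0951 with replicates 2 and 3 alone. FK506 alone against anti-CD3 alone gave −0.47 ± 0.16, which missed the threshold (adjusted p = 0.0594, edgeR) and passed it with DESeq2 (adjusted p = 0.0230) and, by edgeR, with filterByExpr (0.0464) or without FK506 replicate 3 (0.0410). *Il2ra* and *Il15ra* lie 12.0 kb apart on chromosome 2.

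*Il15ra* (gene 16169, chr2:11705172-11733985) encodes the alpha chain of the IL-15 receptor. It measured 9.0, 8.93 and 10.4 FPKM with anti-CD3 alone, 7.20, 8.30 and 8.36 FPKM with *L. acidophilus*, 7.03, 8.33 and 8.29 FPKM with FK506, and 10.3, 10.3 and 10.8 FPKM with the combination. Against anti-CD3 alone the combination gave a log2 change of 0.19 ± 0.13 (adjusted p = 0.263, edgeR), which passed without TMM factors (0.40, adjusted p = 0.0456, edgeR). The combination libraries lay above all FK506 and *L. acidophilus* libraries. The log2 difference was 0.38 ± 0.13 against FK506 (adjusted p = 0.0715, edgeR) and 0.34 ± 0.13 against *L. acidophilus* (adjusted p = 0.0688, edgeR). Both missed the threshold and passed it with DESeq2, with an adjusted p of 0.0181 for each. Both also passed with limma on log2(FPKM + 1) (adjusted p = 0.0165 against FK506 and 0.0120 against *L. acidophilus*), and with edgeR without TMM factors (0.0430 and 0.0266) or on the 6 libraries compared alone (0.0444 and 0.0477). The comparison with *L. acidophilus* passed with the replicate number as a block (0.35, adjusted p = 0.0399, edgeR).

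*Il2rb* (gene 16185, chr15:78479256-78511621) and *Il2rg* (gene 16186, chrX:101264385-101268255), the signalling chains of the IL-2 receptor, passed the test in none of the comparisons with edgeR on all 12 libraries. With replicates 2 and 3 alone, *Il2rb* was called higher in the combination than with *L. acidophilus* (0.40, adjusted p = 0.0459, edgeR). *Il2rb* ranged from 149 to 299 FPKM over the 12 libraries, and its mean was 227 ± 62.3 FPKM with anti-CD3 alone and 219 ± 7.93 FPKM with the combination (SD, n = 3). *Il2rg* ranged from 236 to 388 FPKM, and its log2 changes lay between −0.01 and 0.08 in the 5 comparisons of groups. With a standard error of 0.13 for *Il2rg* and 0.21 for *Il2rb*, small changes in these chains could not be resolved.

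The balance between the chains differed between groups. *Il2ra* stood at 2.21 ± 0.70 times *Il2rb* with anti-CD3 alone, 2.40 ± 0.46 times with *L. acidophilus*, 1.96 ± 0.30 times with FK506 and 1.12 ± 0.08 times with the combination (FPKM ratio, mean ± SD, n = 3). The 8 receptor genes together summed to 1282 ± 85.4, 1189 ± 81.8, 1167 ± 85.0 and 998 ± 45.5 FPKM in the same order. *Il2ra* made up 37.1 ± 2.94% of this sum with anti-CD3 alone and 24.6 ± 3.57% with the combination, whereas *Il7r* made up 1.45 ± 0.24% and 4.79 ± 0.37%. These ratios were not tested.

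*Il4ra* (gene 16190, chr7:125552271-125579474) encodes the chain that binds IL-4. It measured 140, 157 and 147 FPKM with anti-CD3 alone, 133, 139 and 145 FPKM with *L. acidophilus*, and 163, 166 and 152 FPKM with FK506. With the combination it was 101, 67.7 and 66.6 FPKM. Neither single treatment moved it past the threshold, and FK506 gave a log2 change of 0.01 ± 0.16 (adjusted p = 1, edgeR). The combination lowered it by 2.16-fold against anti-CD3 alone (−1.11 ± 0.16, adjusted p = 1.83e-04, edgeR), by 2.17-fold against FK506 (−1.12 ± 0.16, adjusted p = 9.01e-04, edgeR) and by 1.93-fold against *L. acidophilus* (−0.95 ± 0.16, adjusted p = 8.59e-04, edgeR). Within the same replicate number, the combination stood at 0.721, 0.432 and 0.454 of the level with anti-CD3 alone, so replicate 1 had the smallest fall. The numbers were not taken as pairs in this comparison.

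*Il21r* (gene 60504, chr7:125603252-125634397) encodes the IL-21 receptor chain and lies 23.8 kb from *Il4ra*, with 0 annotated genes between them. It had the lowest adjusted p of the 9 genes in the combination against anti-CD3 alone. Its level was 131, 133 and 121 FPKM with anti-CD3 alone, 106, 117 and 113 FPKM with *L. acidophilus*, 101, 99.6 and 110 FPKM with FK506, and 68.7, 65 and 67.4 FPKM with the combination. The log2 change with the combination was −1.14 ± 0.10 against anti-CD3 alone (adjusted p = 1.04e-05, edgeR), −0.73 ± 0.10 against FK506 (adjusted p = 7.22e-04, edgeR) and −0.86 ± 0.10 against *L. acidophilus* (adjusted p = 1.01e-04, edgeR). FK506 alone lowered it by 1.33-fold (−0.42 ± 0.10, adjusted p = 0.0119, edgeR), and the call was lost without FK506 replicate 2 (adjusted p = 0.0563, edgeR), on the 6 libraries compared alone (0.0783) and with replicates 2 and 3 alone (0.0883).

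*Il7r* (gene 16197, chr15:9506159-9529941) encodes the receptor chain for IL-7, a survival signal of naive and memory T cells. Its level was 18.9, 14.3 and 22.9 FPKM with anti-CD3 alone, 20.8, 13.9 and 16.6 FPKM with *L. acidophilus*, 36.3, 29.8 and 30.7 FPKM with FK506, and 54.2, 42.6 and 46.8 FPKM with the combination. The groups with FK506 did not overlap with those without it, which also held for the summed B-cell markers, and the part of these cells was not tested. The log2 change was 1.17 ± 0.18 with the combination (2.25-fold higher, adjusted p = 2.79e-04, edgeR) and 0.67 ± 0.18 with FK506 alone (1.59-fold higher, adjusted p = 0.0202, edgeR), both against anti-CD3 alone. The FK506 call was lost without anti-CD3 replicate 2 (adjusted p = 0.0690, edgeR) or FK506 replicate 1 (adjusted p = 0.0728, edgeR) and with replicates 2 and 3 alone (adjusted p = 0.0648, edgeR). The combination libraries all lay above the FK506 libraries. Within the same replicate number the ratios were 1.49, 1.43 and 1.52, though the numbers were not taken as pairs in this comparison. The test gave 0.50 ± 0.18 with an adjusted p of 0.0691 (edgeR), which missed the threshold. The difference passed with DESeq2 (adjusted p = 0.0208), without TMM factors (0.0422), with filterByExpr (0.0447) and on the 6 libraries compared alone (0.0260), by edgeR where no other tool is named. *Il2ra* stood at 25.9 ± 2.67 times *Il7r* with anti-CD3 alone, 11.5 ± 2.1 times with FK506 and 5.20 ± 1.09 times with the combination (FPKM ratio, SD, n = 3).

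*Il9r* (gene 16199, chr11:32187544-32205283) encodes the IL-9 receptor chain and was the least abundant member, with a mean below 1 FPKM in every group. Its counts were 90, 25 and 28 in replicates 1, 2 and 3 with anti-CD3 alone and 24 to 30 with *L. acidophilus*, against 110 to 492 with FK506 and 303 to 361 with the combination. In FPKM it measured 1.10, 1.13 and 0.270 in FK506 replicates 1, 2 and 3 and 0.722, 0.959 and 0.790 with the combination, so FK506 replicate 3 lay well below the other libraries with FK506. The log2 change against anti-CD3 alone was 2.75 ± 0.49 with the combination (adjusted p = 8.53e-04, edgeR) and 2.72 ± 0.49 with FK506 (adjusted p = 0.00311, edgeR), and the combination did not differ detectably from FK506 (0.03 ± 0.45, adjusted p = 0.986, edgeR). Anti-CD3 replicate 1 weighed on the size of both changes, which were 3.45 with the combination and 3.42 with FK506 without it. On the log2(FPKM + 1) scale of limma, which compresses low levels, the change with the combination was 0.75. B-cell markers moved with *Il9r*: 8 of the 10 were called higher with the combination and 9 of the 10 with FK506, and FK506 replicate 3 had the lowest summed B-cell level of its group (238 FPKM). The order did not hold across groups, since the combination libraries had lower B-cell sums (155 to 176 FPKM) than FK506 replicate 3 but more *Il9r*. Their part in the *Il9r* result was not tested.

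**Figure D2:**
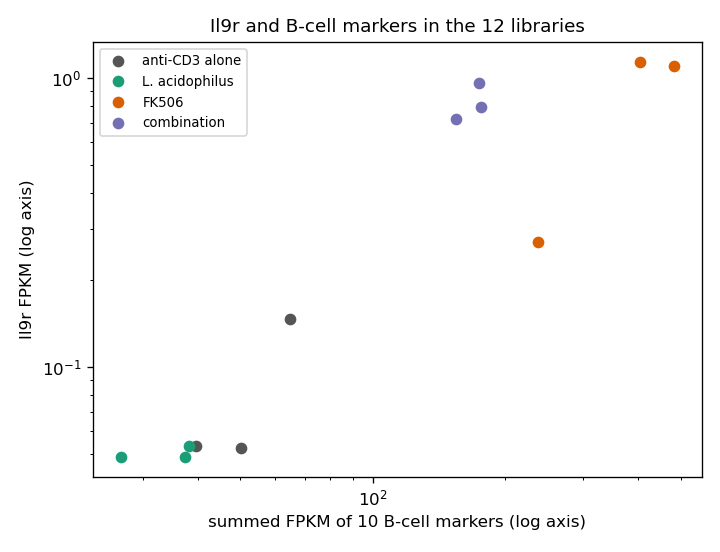
*Il9r* level against the summed level of the 10 B-cell markers in each of the 12 libraries, both in FPKM on log axes, coloured by group. Libraries without FK506 lie at the lower left (B-cell sum up to 64.8 FPKM), libraries with FK506 lie further right (155 to 484 FPKM), and FK506 replicate 3, at 238 FPKM of B-cell markers, has less *Il9r* (0.270 FPKM) than the 3 combination libraries to its left.

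*L. acidophilus* alone changed 0 of the 9 genes against anti-CD3 alone with edgeR, where 0.178% of all genes were called higher, 0.0509% lower and 0.187% with at least a 2-fold change. At an unadjusted p under 0.05, where 14.8% of all genes lay, the count was 1, *Il21r* (−0.28 ± 0.10, adjusted p = 0.212, edgeR), whose 3 libraries all lay below those with anti-CD3 alone. DESeq2 called that gene (adjusted p = 0.0446), and limma called 0. The number of genes called in this comparison moved with the settings: edgeR called 42 genes higher and 12 lower on all 12 libraries, 1 gene in all without *L. acidophilus* replicate 1 or 2, 391 without anti-CD3 replicate 3 and 0 on the 6 libraries alone, and DESeq2 called 1121. *Il2* showed a log2 change of −0.09 ± 0.46 in the fit without a replicate block, which could not resolve a change of moderate size in either direction. Within the same replicate number, taken as a pair in this comparison, its level with *L. acidophilus* was 0.856, 1.19 and 0.881 of that with anti-CD3 alone. No alternative, the replicate block among them, called *Il2* in this comparison.

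FK506 alone changed 4 of the 9 genes, with *Il2* and *Il21r* lower and *Il7r* and *Il9r* higher. In this comparison 10.2% of all genes were called higher, 8.81% lower and 10.6% with at least a 2-fold change, a size that 2 of the members (*Il2* and *Il9r*) reached. The combination against FK506 alone lowered *Il2*, *Il2ra*, *Il4ra* and *Il21r* and raised 0 members with edgeR, against 8.18% of all genes higher, 10.9% lower and 7.44% with at least a 2-fold change. At an unadjusted p under 0.05, where 32.8% of all genes lay, the count was 6 in both directions together, with *Il7r* and *Il15ra* on the higher side, and DESeq2 called the same 6 genes. DESeq2 called 5803 of all 23585 genes in this comparison. Against *L. acidophilus* alone, the combination changed 6 members, of which 4 fell and 2 rose, where 16.6% of all genes were higher, 17% lower and 16.6% called with at least a 2-fold change. *Il7r* was 2.59-fold higher (1.37 ± 0.18, adjusted p = 1.88e-04, edgeR) and *Il9r* 11.9-fold higher (3.57 ± 0.52, adjusted p = 3.62e-04, edgeR) in that comparison. These comparisons share libraries, so their counts are not independent.

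**Figure D3:**
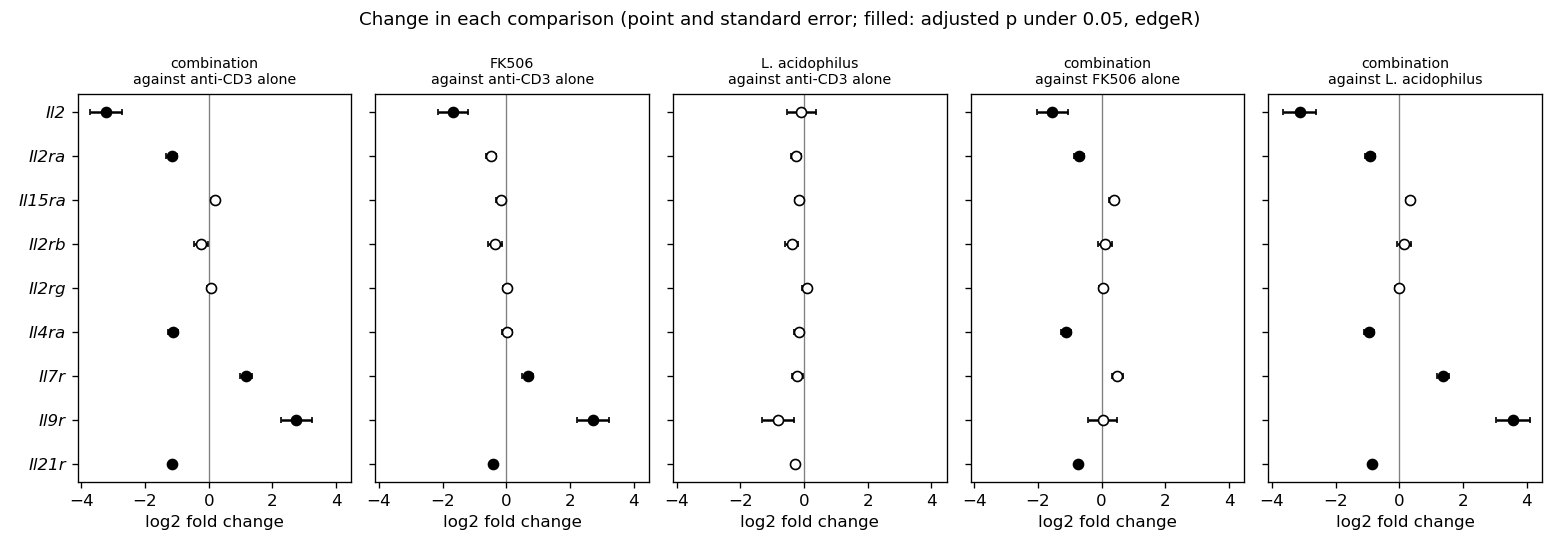
Log2 fold change of the 9 genes with its standard error in the 5 comparisons of groups (filled points: adjusted p under 0.05, edgeR). The combination moved 6 genes against anti-CD3 alone, FK506 moved 4 and *L. acidophilus* 0, and *Il2rb* (−0.39 to 0.14) and *Il2rg* (−0.01 to 0.08) passed the test in none of the panels.

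A further contrast compared the combination with what the single log2 changes add up to. For *Il4ra* the combination lay 0.95 ± 0.22 below that sum (log2 departure −0.95, adjusted p = 0.0358, edgeR), and of all genes 1.35% departed upward and 3% downward. This call was made in 2 of the 12 fits that left out 1 library, those without anti-CD3 replicate 2 or combination replicate 1, and the highest adjusted p of the others was 0.0902 (without *L. acidophilus* replicate 3). *Il2* departed by −1.46 ± 0.66 (adjusted p = 0.248, edgeR), *Il21r* by −0.44 ± 0.14 (adjusted p = 0.0967), *Il7r* by 0.70 ± 0.25 (adjusted p = 0.139) and *Il15ra* by 0.52 ± 0.19 (adjusted p = 0.148), none past the threshold with edgeR as fitted here. DESeq2 called *Il15ra*, *Il7r* and *Il21r* as well (adjusted p = 0.0387, 0.0389 and 0.0271). It called 2379 of all 23585 genes in this contrast, against 318 upward and 707 downward with edgeR. With limma, *Il15ra* passed (adjusted p = 0.0247 on log2(FPKM + 1) and 0.0294 on log2(FPKM + 0.1)), as did *Il21r* (0.0259 and 0.0418), and with the replicate number as a block edgeR called *Il7r* (adjusted p = 0.0333). Over all genes, limma called 1675 and 1413 on these scales, and edgeR with the block called 1578.

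**Figure D4:**
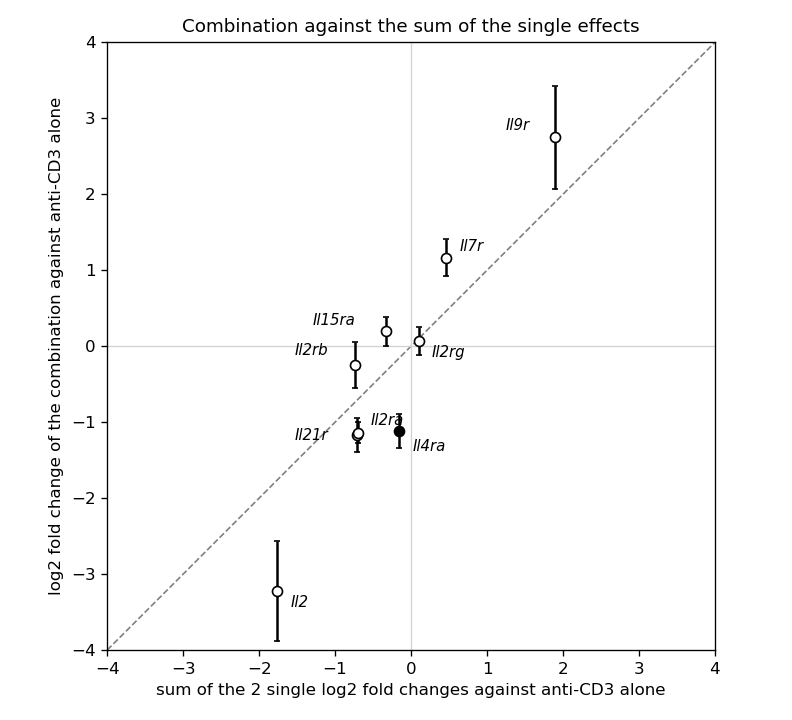
Log2 fold change of the combination against anti-CD3 alone, plotted over the sum of the changes with *L. acidophilus* and with FK506 alone, for the 9 genes (bars: standard error of the departure; dashed line: no departure). *Il4ra*, the filled point, lies 0.95 below the line with an adjusted p of 0.0358, and *Il2* lies further below with a wider error (0.66).

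With the combination, *Il4*, *Il9* and *Il21* were lower and *Il15* and *Il7* higher than with anti-CD3 alone. *Il4*, the ligand of the IL-4 receptor, measured 60.2, 20.8 and 24.5 FPKM with anti-CD3 alone and 1.85, 1.27 and 2.23 FPKM with the combination (−4.50 ± 0.70, adjusted p = 3.27e-04, edgeR). *Il21*, which lies 96.8 kb from *Il2* on chromosome 3, fell from 57.4, 30.0 and 40.5 FPKM to 0.942, 1.11 and 1.04 FPKM (−5.56 ± 0.47, adjusted p = 9.97e-06, edgeR). *Il9* had 1054 to 1620 counts with anti-CD3 alone and 0 counts in all 3 combination libraries, at least 398-fold lower against a floor of 3 counts per library, which covers counting error only. With FK506 alone, *Il21* fell (−2.13 ± 0.40, adjusted p = 0.00386, edgeR), while *Il4* gave −0.07 ± 0.58 and *Il9* 27.5, 31.6 and 77.2 FPKM against 40.2, 40.6 and 31.5 FPKM.

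*Il15* rose with the combination, from 0.0814, 0.0484 and 0.220 FPKM to 2.30, 2.11 and 2.23 FPKM (3.82 ± 0.64, adjusted p = 5.37e-04, edgeR). *Il7* had 0 counts with anti-CD3 alone and 14 to 20 with the combination, at least 6.05-fold higher against the same floor. IL-15 is a known product of myeloid and stromal cells and IL-7 of stromal cells, and 7 of the 8 myeloid markers tested were called higher with the combination. *Lyz2* had at most 3 counts in any library with anti-CD3 alone and was at least 458-fold higher with the combination. The part of these markers in the *Il15* and *Il7* results was not tested.

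**Figure D5:**
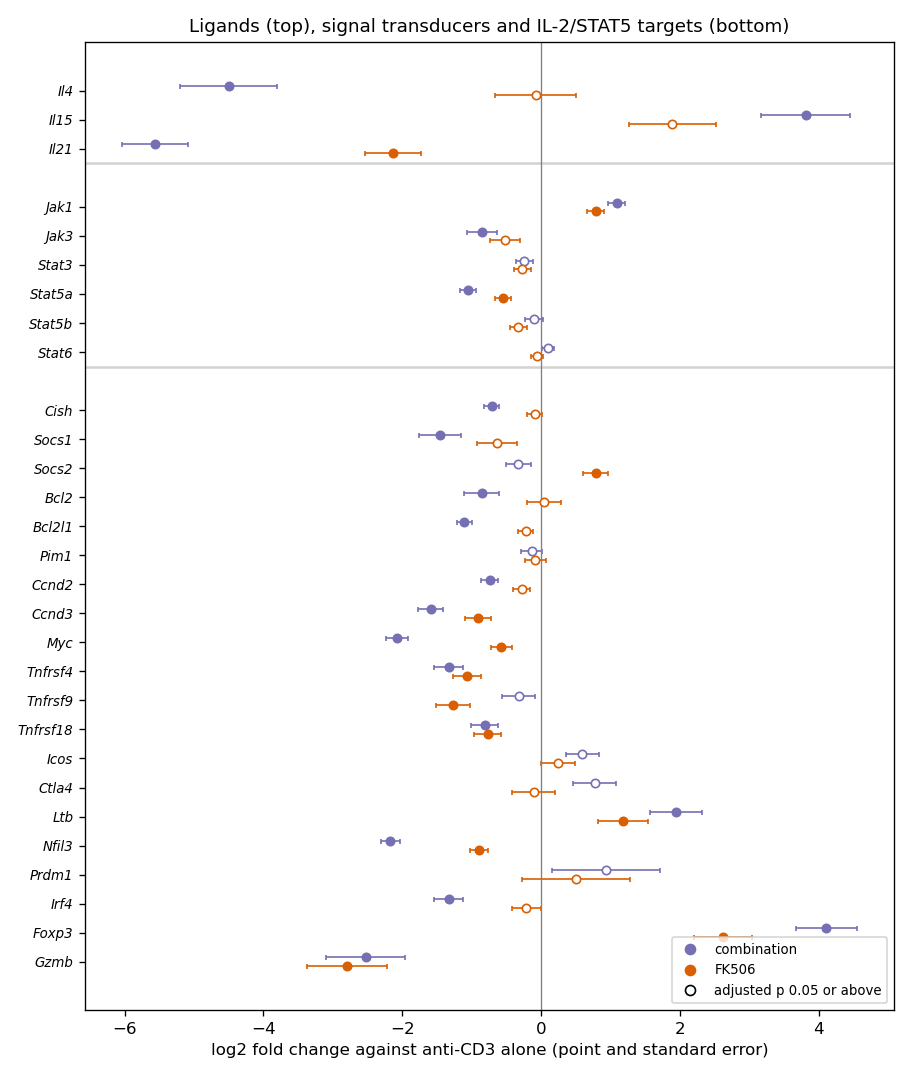
Log2 fold change against anti-CD3 alone (point and standard error) of ligands, signal transducers and IL-2/STAT5 target genes with the combination (purple) and FK506 (orange); open points did not pass the test, and *Il7* and *Il9*, at 0 counts in a group, are left out. *Il4* and *Il21* lie furthest to the left with the combination (−4.50 and −5.56), and 12 of the 20 targets are filled and lower.

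Of the 6 signal transducers of the family, *Jak1* rose with the combination and *Jak3* and *Stat5a* fell, where 21.5% of all genes were called higher and 21.8% lower. *Jak1*, the kinase of the private chains, went from 45.1, 37.2 and 52.5 FPKM with anti-CD3 alone to 123, 106 and 103 FPKM (1.09 ± 0.13, adjusted p = 5.02e-05, edgeR). *Jak3*, the kinase of the gamma chain, went from 163, 79.8 and 105 FPKM to 82.7, 70.7 and 69.1 FPKM (−0.85 ± 0.21, adjusted p = 0.00738, edgeR). Its 2 groups overlapped, since combination replicate 1 lay above anti-CD3 replicate 2. *Stat5a* fell from 106, 87.9 and 96.4 FPKM to 54.7, 53.1 and 54.4 FPKM (−1.04 ± 0.12, adjusted p = 3.67e-05, edgeR), whereas its paralogue *Stat5b* gave −0.10 ± 0.13. *Stat3* and *Stat6* did not pass the test. *Crlf2*, which pairs with the IL-7 receptor chain to sense TSLP, was higher (0.47 ± 0.14, adjusted p = 0.0194, edgeR).

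Among 20 genes listed as targets of IL-2 and STAT5 signals, 12 were lower and 2 higher with the combination than with anti-CD3 alone, and 6 did not pass, where 21.8% of all genes were called lower and 21.5% higher. Their median log2 change was −0.77, against 0.02 over all genes tested. *Myc*, a driver of growth, fell from 94.0, 89.4 and 92.8 FPKM to 28.3, 24.5 and 22.6 FPKM (−2.07 ± 0.16, adjusted p = 7.65e-06, edgeR). *Nfil3* fell by 2.17 ± 0.14, *Socs1* by 1.45 ± 0.30 and *Cish*, a feedback inhibitor induced by STAT5, by 0.71 ± 0.11 on the log2 scale, all called with edgeR. *Bcl2l1*, which protects cells from apoptosis, fell by 1.10 ± 0.11. The genes that rose were *Foxp3*, the lineage factor of regulatory T cells, and *Ltb*, which encodes lymphotoxin beta.

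*Foxp3* rose from 4.45, 4.73 and 6.20 FPKM to 108, 95.7 and 101 FPKM (4.11 ± 0.44, adjusted p = 3.23e-05, edgeR), with 44.8, 35.6 and 21.9 FPKM with FK506 alone. The same libraries thus had the highest *Foxp3* and the lowest *Il2ra*, a gene that regulatory T cells are known to express at a high level. FK506 alone lowered 7 of the 20 targets and raised 3, with a median of −0.22, where 8.81% of all genes were called lower and 10.2% higher. *L. acidophilus* changed 0 with edgeR, with 8 at an unadjusted p under 0.05, against 14.8% of all genes. *Socs2* was higher with FK506 (0.79 ± 0.18, adjusted p = 0.00974, edgeR) and gave −0.32 ± 0.18 with the combination.

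Of 14 regulators of *Il2* transcription, 4 rose and 1 fell with the combination against anti-CD3 alone, where 21.5% of all genes were called higher and 21.8% lower. *Nfatc1*, which encodes an NFAT protein, rose by 1.17 ± 0.13 on the log2 scale (adjusted p = 4.30e-05, edgeR), *Nfatc3* by 0.76 ± 0.10, *Fos* by 1.10 ± 0.25 and *Rel* by 0.88 ± 0.14. *Junb* fell by 1.55 ± 0.17 (adjusted p = 3.63e-05, edgeR), from 331, 486 and 325 FPKM to 165, 144 and 143 FPKM. With FK506 alone, 5 of the 14 were called higher and 2 lower, where 10.2% of all genes were called higher and 8.81% lower. Among the 5 was *Ikzf3*, a repressor of *Il2* (1.03 ± 0.21, adjusted p = 0.00662, edgeR), which gave 0.29 ± 0.21 with the combination. The activity of NFAT, which calcineurin sets at the protein level, was not measured.

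Among 4 regulators of *Il7r*, *Klf2*, a factor of resting T cells, rose from 0.995, 1.34 and 3.11 FPKM with anti-CD3 alone to 73.6, 29.1 and 29.2 FPKM with the combination (4.43 ± 0.50, adjusted p = 4.48e-05, edgeR). *Gfi1*, a known repressor of *Il7r*, fell from 56.5, 72.7 and 65 FPKM to 14.1, 17.2 and 15.2 FPKM (−2.28 ± 0.16, adjusted p = 5.90e-06, edgeR). *Foxo1*, an activator of *Il7r*, gave 0.22 ± 0.13 and *Gabpa* −0.03 ± 0.11, neither past the test. With FK506 alone, *Klf2* was also higher (3.56 ± 0.49, adjusted p = 6.83e-04, edgeR) and *Gfi1* lower (−0.88 ± 0.15, adjusted p = 0.00251, edgeR). With *L. acidophilus*, *Klf2* stood at 9.65, 11.3 and 8.49 FPKM, above every library with anti-CD3 alone (2.38 ± 0.47, adjusted p = 0.0614, edgeR), while the *Il7r* libraries of these groups overlapped.

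The genes whose log2(FPKM + 1) followed *Il2* most closely over the 12 libraries, among 12220 genes with a mean of at least 1 FPKM, were *Snhg4* (Pearson's r = 0.974), *Pip5k1b* (0.972) and *Myh7* (0.971). For *Il2ra* they were *Pdp2* (0.966) and *Hsd17b7* (0.958) and *Insig1* (0.955), the latter pair being genes of sterol metabolism. For *Il7r* they were *Arhgap25* (0.972), *Trappc12* (0.969) and *Acsl1* (0.968). These correlations are descriptions over libraries that share 4 treatments, and they were not tested.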

How the data were processed

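CD4+ T-cell RNA of 12 libraries in 4 groups was compared, with groups and replicate numbers taken from the sample labels. The submitters' processing notes name bcl2fastq 2.20.0, Trimmomatic, HISAT2 2.1.0 and StringTie 2.1.3b with GRCm38 (mm10). The authors deposited read counts as whole numbers per gene, which may be rounded estimates from StringTie, and FPKM values scaled to transcript length and library size. The quantile normalization that the methods name was not visible in the FPKM totals. The 12 TPM columns were not used. Overlapping genes and near-identical copies may share reads.

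Counts were tested in R 4.3.3 with edgeR 4.0.16 (quasi-likelihood test, TMM factors, 1 mean per group, all 12 libraries, genes above 0 in at least 3 libraries, 23585 genes, Benjamini-Hochberg adjusted p under 0.05). Each standard error is the size of the log2 change over the root of its F statistic. The members and the gene lists were chosen with earlier results of these data known, so counts over them are descriptions. All 9 members were named, and genes of the lists where a result of their list is given. For *Il2*, *Il2ra* and *Il7r*, the 3 genes of most alike pattern were taken. Replicates of a group differed by more than sampling noise in every pair, with at least 4.52 for the chi-square over its degrees of freedom. That lowest value was for combination replicates 2 and 3, against 72.1 and 79.2 for the other pairs of this group. For *L. acidophilus* replicates 2 and 3 it was 8.95, against 55.1 and 54.4. Replicates 2 and 3 of these 2 groups were thus much more alike than either was to replicate 1. Same-numbered libraries deviated together from their group means in *L. acidophilus* against anti-CD3 alone (r = 0.29 to 0.52 over 12221 genes) and in the combination against *L. acidophilus* (0.19 to 0.25). There the numbers were taken as pairs on the strength of the data, not of the labels. The main fit treated all libraries as unpaired. The numbers entered only in the alternative with a replicate block and in the ratios within a number.

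Alternatives were DESeq2 1.42.0, limma 3.58.1 on log2(FPKM + 1) or log2(FPKM + 0.1), no TMM factors, other filters, the libraries compared alone, the replicate block, a 2-fold cut-off, replicates 2 and 3 alone, each library left out, and, chosen after seeing the data, combination replicates 2 and 3 summed as 1 library. Promoters were searched on both strands. Figures come from matplotlib 3.10.9 (Python 3.11.15).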

Additional observations from a re-analysis of the deposited data

Results flagged for a closer look

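The effect of *L. acidophilus* with FK506 differed from its effect without FK506 for 9 of 58 members and listed genes examined, 8 downward and 1 upward (edgeR, difference of log2 fold changes with standard error), where 3% of all genes departed downward and 1.35% upward. These shares stand for 707 and 318 genes, and fits that left out 1 library called between 332 and 1464 genes in both directions together. *Il4ra* gave −0.95 ± 0.22 (adjusted p = 0.0358), a call lost in 10 of 12 fits that left out 1 library and with combination replicates 2 and 3 summed (adjusted p = 0.0844). Its ligand gene *Il4* gave −4.63 ± 0.89 (adjusted p = 0.0173). *Il21* gave −3.21 ± 0.57 (adjusted p = 0.0130). Among targets of IL-2 and STAT5 signals, *Bcl2l1* gave −0.61 ± 0.16 (adjusted p = 0.0476), *Myc* −1.29 ± 0.22 (adjusted p = 0.0107), *Nfil3* −0.88 ± 0.19 (adjusted p = 0.0242) and *Tnfrsf9* 1.66 ± 0.34 (adjusted p = 0.0219), the last in the opposite direction. The transcription factor genes *Ikzf3* and *Gfi1* gave −1.27 ± 0.30 (adjusted p = 0.0382) and −1.19 ± 0.22 (adjusted p = 0.0142). For the flagged genes other than *Il4ra*, the fits that left out 1 library were not examined. *Il9*, with 0 counts in the combination, was left out of this list because its fitted change depends on the prior count.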

How the results depend on the processing

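Of 1224 log2 changes of members recomputed under the alternatives, 1113 kept their direction and their side of the threshold. The counts of members changed are not part of these and are given next. The count of 6 members changed by the combination against anti-CD3 alone was 6 or 7 throughout (7 without TMM factors, with *Il15ra*), and the called members kept their direction in every alternative. Without TMM factors, the median log2 change over all genes in this comparison was 0.23 in place of 0.02. With a 2-fold cut-off, the counts were 2 for FK506 against anti-CD3 alone, 2 for the combination against FK506 and 3 against *L. acidophilus*. FK506 against anti-CD3 alone gave 2 with replicates 2 and 3 alone and 2 to 5 with 1 library left out, and the combination against FK506 gave 2 to 5. *L. acidophilus* against anti-CD3 alone gave 1 with DESeq2. The departure from the sum gave 4 with DESeq2, 3 with limma on either pseudocount, 2 with the replicate block, 0 to 1 with 1 library left out and 0 with combination replicates 2 and 3 summed. Over all genes it was called for 2379 with DESeq2, 1675 and 1413 with limma on log2(FPKM + 1) and log2(FPKM + 0.1), and 1578 with the block. It was called for 332 to 1464 with 1 library left out and 409 with those replicates summed. The main fit called 318 upward and 707 downward. With the replicate block, where the numbers did not pair the libraries, the counts were 6 for the combination against anti-CD3 alone, 5 for FK506 against anti-CD3 alone and 6 for the combination against FK506, and 9 of 12 libraries correlated best with their own number. Over all genes that block called 10478, 4886 and 5216 in these comparisons. In FK506 against anti-CD3 alone the fifth gene was *Il2ra* (−0.48, adjusted p = 0.0262, edgeR). In the combination against FK506, that block gave *Il7r* an adjusted p of 0.0136 and *Il15ra* 0.0418 (edgeR). In the paired comparisons, the block changed the call of *Il15ra* and no other.

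Changes of sign were confined, in these alternatives, to values that were not called. In the combination against anti-CD3 alone, replicates 2 and 3 alone gave 0.016 for *Il2rb* and −0.17 for *Il2rg*, and leaving out 1 library gave −0.40 to 0.015 and −0.088 to 0.16. In FK506 against anti-CD3 alone, they gave −0.068 for *Il2rg* and −0.020 for *Il4ra*, and leaving out 1 library −0.062 to 0.11 and −0.033 to 0.075. *Il2* with *L. acidophilus* ranged from −0.40 to 0.28. In the combination against FK506, with 1 library left out, *Il9r* ranged from −0.35 to 0.28 and *Il2rg* from −0.11 to 0.14. In the same comparison, *Il9r* gave −0.025 with combination replicates summed and *Il2rg* −0.10 with replicates 2 and 3 alone. *Il2rg* in the combination against *L. acidophilus* gave 0.034 with DESeq2, 0.12 without TMM factors, 0.0046 with filterByExpr, 0.10 with limma, 0.074 with replicates summed and −0.17 to 0.072 with 1 library left out. Its departure from the sum gave 0.010 with DESeq2, 0.057 with replicates summed and −0.19 to 0.055 with 1 library left out. The cause of these differences was not tested. Depth limits *Il9r*, with 24 to 90 counts in the groups without FK506, and *Il7*, with at most 20 counts in any library.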
